A study of Mus musculus with 6 samples.

Results

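The unfolded protein response and the folding machinery of the endoplasmic reticulum (ER) were described here through 34 genes, listed by symbol: the 3 stress sensors, their transcription factors and targets, and enzymes and channels that fold, degrade or import secreted proteins. Each gene was represented by its brightest probe set among those annotated to that symbol alone, out of 18193 genes with such a probe set, and no measured difference entered the choice of probe set. Of the 34 genes, 33 passed the filter on dim probe sets and were tested among 10824 genes. Pdia4, an ER disulfide isomerase, stayed below it.

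The cells were LSK cells, a gate for lineage-negative bone marrow cells with Sca-1 and c-Kit that holds hematopoietic stem and progenitor cells. They came from 3 adult mice (278, 279 and 281) on a mixed 129-B6 background, each carrying the same 3 alleles: Mx1Cre, an interferon-inducible Cre recombinase; Ergkd/+, 1 knockdown allele of the ETS transcription factor gene Erg; and Rosa26-Stop-YFP, a reporter of Cre action. From each mouse, YFP-negative cells labelled Erg-knockdown (about 40% less Erg) and YFP-positive cells labelled Erg-restored (to the wild-type level) were each put on 1 Affymetrix mouse genome 430 2.0 array, 6 arrays in all. All animals carried the knockdown allele and the Cre. Since YFP set the sort, Cre action and the choice of cells it spared cannot be told apart from the Erg level that the labels give.

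A set of 3 sensors in the ER membrane starts the unfolded protein response. IRE1, encoded by Ern1, splices the messenger of Xbp1 so that it yields an active transcription factor. PERK, encoded by Eif2ak3, phosphorylates the translation factor eIF2alpha, which lowers protein synthesis while favouring translation of ATF4. ATF6 moves to the Golgi under stress and is cut there to free a transcription factor. Their targets refold proteins in the ER lumen, retrotranslocate those that fail to fold for degradation, or, on prolonged stress, promote cell death through CHOP (Ddit3). In hematopoietic stem cells the response has been tied to survival under stress. The arrays read messenger levels, so Xbp1 splicing, ATF6 cleavage and eIF2alpha phosphorylation were not measured here.

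What some of the 34 genes share beyond function is a DNA element near the start of transcription. The ER stress response element (ERSE), through which ATF6 acts together with the CCAAT-binding factor NF-Y, was searched as CCAAT, then 9 bases of any kind, then CCACG, on both strands of RefSeq promoter windows (GRCm38.p6, 250 bases before to 50 after the start). Of the 34 genes 28 had a window, and 8 of the 28 (28.6%) held the element. Among all genes with a window 37 of 27025 held it, in 39 of 32851 windows (0.119%). A match describes letters in the window, not binding. The elements of these 8 genes are shown because few windows hold one, and most of the 28 genes have none. Capitals mark the element, and each sequence runs along the strand of its gene, so that an element on the opposite strand appears as CGTGG followed by ATTGG.
Hspa5 (chr2:34772019-34772049, plus strand): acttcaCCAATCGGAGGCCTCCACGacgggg
Hsp90b1, upstream copy (chr10:86705632-86705662, minus strand): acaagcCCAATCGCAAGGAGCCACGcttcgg
Hsp90b1, downstream copy (chr10:86705527-86705557, minus strand): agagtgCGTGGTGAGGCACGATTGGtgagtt
Creld2 (chr15:88819514-88819544, plus strand): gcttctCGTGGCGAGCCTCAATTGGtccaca
Dnajc3 (chr14:118937821-118937851, plus strand): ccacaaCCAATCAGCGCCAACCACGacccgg
Calr (chr8:84847069-84847099, minus strand): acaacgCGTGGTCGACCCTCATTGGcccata
Canx (chr11:50325794-50325824, minus strand): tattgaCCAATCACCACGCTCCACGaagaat
Pdia6 (chr12:17266485-17266515, plus strand): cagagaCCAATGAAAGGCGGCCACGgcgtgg
Syvn1 (chr19:6046526-6046556, plus strand): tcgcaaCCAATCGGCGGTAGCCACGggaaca

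The elements began between 44 bases (Syvn1) and 212 bases (Hsp90b1) before the start, and Hsp90b1 was the only one of the 28 genes searched with 2 exact copies. Copies that differ from the searched letters were not counted, so a promoter may hold further elements. The whole upstream window of Hspa5, the gene of the chaperone BiP (GRP78), which also holds each sensor inactive in resting cells, is given as the best known promoter of the response (chr2:34771840-34772089, plus strand, element in capitals).
Hspa5 promoter: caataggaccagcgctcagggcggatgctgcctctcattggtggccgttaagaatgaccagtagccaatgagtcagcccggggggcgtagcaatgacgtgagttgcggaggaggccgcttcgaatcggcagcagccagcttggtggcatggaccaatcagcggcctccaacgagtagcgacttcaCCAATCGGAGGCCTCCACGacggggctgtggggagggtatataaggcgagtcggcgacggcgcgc

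A shorter form of the element (ERSE-II, which is ATTGG, any base, then CCACG, on both strands) was present in 2 of the 28 windows, those of Herpud1 and Dnajb11, and in 0.0365% of all windows. The Herpud1 copy lies 52 bases before the start and that window holds no ERSE.
Herpud1 (chr8:94386371-94386393, plus strand): gcgctgATTGGGCCACGttggac
The element of the PERK branch, where ATF4 binds with C/EBP factors, was searched as TGATGNAAN and was present for 3 of the 28 genes (10.7%), Asns, Trib3 and Herpud1, against 3.95% of all windows. The letters TGACGTGG, a form of the unfolded protein response element of XBP1, were in none of the 28 windows and in 0.676% of all windows.
Asns (chr6:7693218-7693238, minus strand): gccacaTGATGAAACttcccg

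The targeted gene was read first. The brighter Erg probe set read 2969.9, 2754 and 2706 on the knockdown-labelled arrays of mice 278, 279 and 281, against 2731, 2901 and 2659 on the restored-labelled arrays. The groups overlapped, and the log2 difference, knockdown-labelled minus restored-labelled, was 0.024 ± 0.080 (standard error of the paired fit, limma adjusted p = 0.936). The dimmer probe set gave -0.11 ± 0.11. The labelled fall in Erg was therefore not seen in these values, and the groups are named by their labels. Log2 differences below have the same direction and are on the log2(intensity + 16) scale. The mean intensity per array lay between 1034 and 1075. Of 12 markers of LSK cells 10 had a probe set and all 10 passed the filter. They include Kit at 3972 to 5206, Cd34 at 8800 to 9512, Slamf1 at 224 to 577 and Tek at 599 to 1135 over the 6 arrays, and 7 stood higher and 3 lower. Their summed intensity was 45135 to 48027 in knockdown-labelled cells, against 43154 to 44009 in restored-labelled cells. The Sca-1 gene Ly6a was not analysed here. The restored-labelled array of mouse 279 stood apart: it was the array farthest from the mean of the 6 for 48.6% of all genes tested, and its 3' over 5' log2 ratio of actin and Gapdh control probe sets was 0.71, against 0.47 to 0.54 on the other 5. It was the farthest for 15 of the 33 ER genes. A fit of the other 5 arrays, which has no mouse term, turned the sign of 5 of the 33 genes, to -0.17 for Edem1, 0.038 for Hsp90b1, 0.021 for Ddit3, 0.15 for Asns and -0.013 for Derl2.

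No gene of the 34 passed an adjusted p of 0.05, and the lowest adjusted p was 0.771 (limma, Benjamini-Hochberg over all genes). No gene of the whole table passed either (0%). At an unadjusted p below 0.05 there were 2 ER genes, Eif2ak3 on the higher and Fkbp11 on the lower side, which is 6.06% of the 33, against 5.84% of all genes (3.96% higher and 1.88% lower). In 12 of the 33 genes the groups did not overlap, a share of 36.4% against 15.2% of all genes, with 6 genes on each side (background 10.1% higher and 5.08% lower). Groups without overlap give 1 sign in all 3 mice by definition. No further ER gene had 1 sign in all 3 mice, so the share was again 36.4%, against 32.2% of all genes. The median difference over the 33 genes was -0.020, with 15 genes higher and 18 lower, beside -0.00015 over all genes, of which 50% stood higher. Its values in mice 278, 279 and 281 were 0.025, 0.014 and -0.047. For 29 of the 33 genes the whole 95% interval lay within 1.5-fold, against 74.9% of all genes, and the other 4 were Ern1, Edem1, Trib3 and Fkbp11. Centring each array on its median moved the median of all genes to -0.11 and changed the sign of 8 ER genes, all of which stood higher by less than 0.11 before: Edem1, Hyou1, Dnajb11, Calr, Canx, Syvn1, Derl1 and Derl2.

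**Figure D1:**
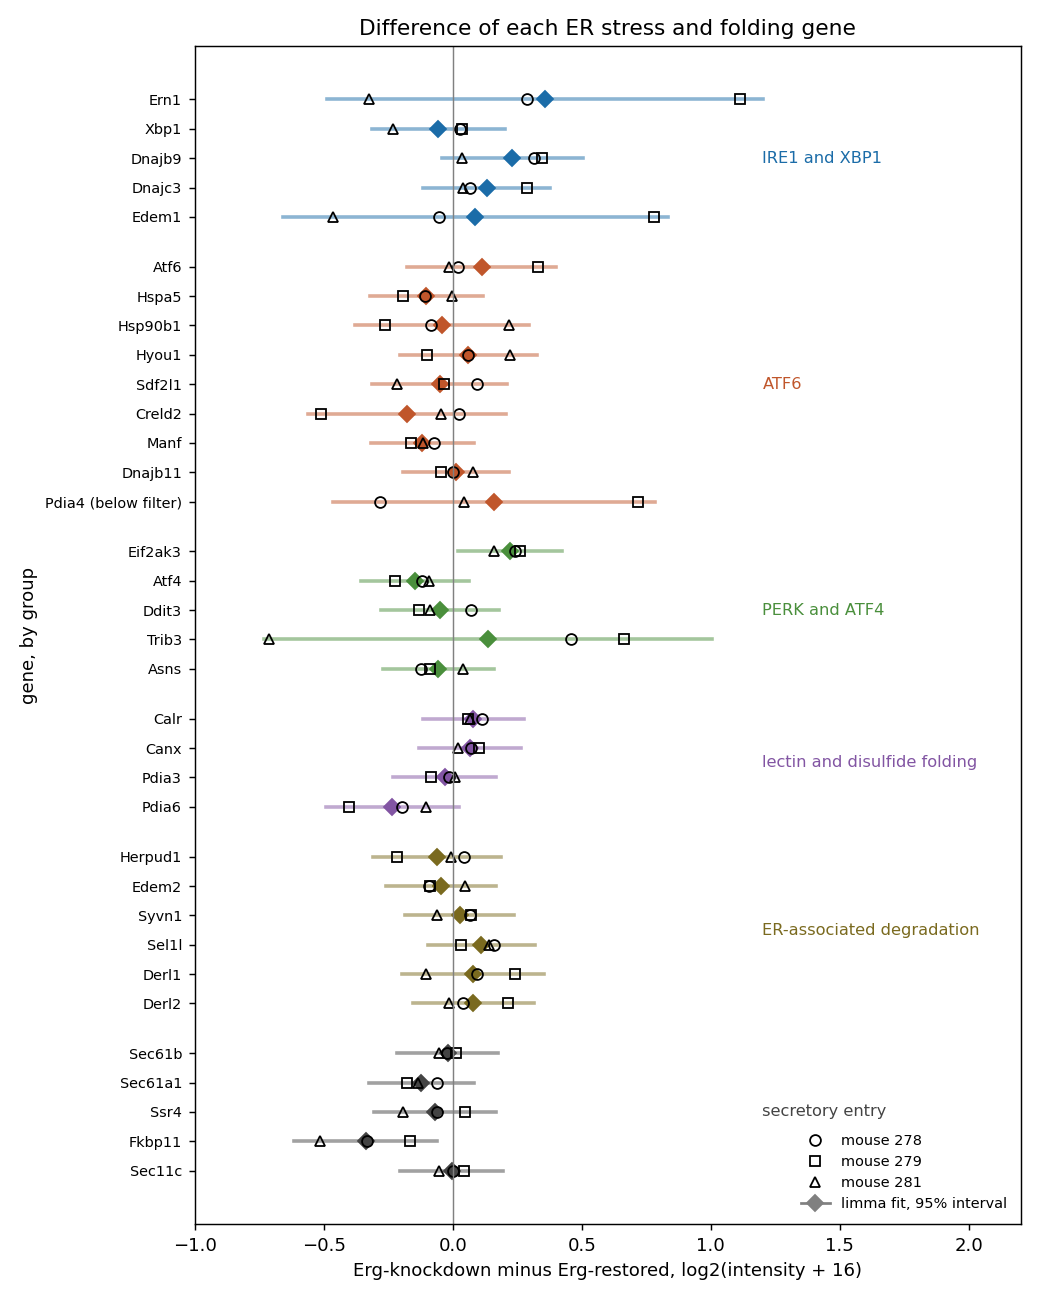
Knockdown-labelled minus restored-labelled difference of each of the 34 genes on the log2(intensity + 16) scale, by group. Open symbols are the 3 mice, diamonds the limma fit and bars its 95% interval. The intervals of all genes but Eif2ak3 and Fkbp11 cross 0, and those of Ern1, Edem1 and Trib3 are among the widest.

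The PERK branch gave the sensor and its transcription factor on opposite sides. Eif2ak3 read 1001, 871 and 969 in knockdown-labelled cells, against 843, 725 and 865 in restored-labelled cells. Every knockdown-labelled array lay above every restored-labelled one, by a narrow margin of 871 over 865, and the difference was 0.22 ± 0.072 (1.17-fold, 95% interval 1.01 to 1.34, unadjusted p = 0.0382, limma adjusted p = 0.771). It was 0.24, 0.26 and 0.16 in mice 278, 279 and 281. The paired fit without mouse 279 gave 0.20 (limma unadjusted p = 0.0797). Dropping only the mouse 279 restored-labelled array, a fit of 5 arrays with no mouse term, gave 0.14 (limma unadjusted p = 0.134). With centred arrays it was 0.11 (unadjusted p = 0.294, limma). Atf4, the transcription factor translated when PERK is active, read 4875, 4914 and 5178 in knockdown-labelled cells, against 5300, 5748 and 5523 in restored-labelled cells. Here too the groups did not overlap, with the knockdown-labelled arrays below, at a difference of -0.15 ± 0.075, while a second Atf4 probe set gave 0.021. ATF4 is regulated in large part by translation, which the arrays do not read.

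The ATF4 targets of the PERK branch did not follow the labelled groups. Ddit3, encoding CHOP, a transcription factor that promotes cell death on lasting stress, read 1457, 1525 and 1408 in knockdown-labelled cells, against 1386, 1673 and 1499 in restored-labelled cells, a difference of -0.050 ± 0.082. Asns, the asparagine synthetase gene, read 3236, 6131 and 5237 in knockdown-labelled cells, against 3523, 6512 and 5089 in restored-labelled cells of mice 278, 279 and 281. Both Asns arrays of mouse 278 lay below all 4 arrays of the other mice, and the mouse means spanned 1.87-fold while no within-mouse difference was beyond -0.12 on the log2 scale. A second Asns probe set gave the same order of mice, with 3241 and 3223 in mouse 278 and 4658 to 6160 in the others. Trib3, a pseudokinase gene that dampens ATF4 signalling, read 322, 523 and 163 in knockdown-labelled cells, against 229.6, 324 and 278 in restored-labelled cells. Its differences of 0.46, 0.66 and -0.71 in the 3 mice had no common direction. In 8 of the 33 genes (24.2%), Asns and Trib3 among them, the mouse means lay farther apart than the 2 populations of any single mouse, as in 21.8% of all genes.

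In the IRE1 branch, 4 of 5 genes stood higher and the median difference was 0.13, with values of 0.065, 0.34 and -0.23 in mice 278, 279 and 281. It was -0.018 without mouse 279 and 0.024 with centred arrays. Ern1, the sensor, read 2016, 1927 and 1413 in knockdown-labelled cells, against 1647, 883 and 1774 in restored-labelled cells. The restored-labelled array of mouse 279 was the lowest by far, and the groups overlapped. The difference was 0.36 ± 0.30, but -0.018 without mouse 279, 0.70 without mouse 281 and 0.045 in the fit of the other 5 arrays. Edem1, a lectin that directs misfolded glycoproteins to degradation, showed the same order at its low end, with 1368, 1447 and 1062 in knockdown-labelled cells, against 1419.9, 837 and 1469 in restored-labelled cells. Its difference was 0.087 ± 0.27, and -0.26 without mouse 279. A second Edem1 probe set read 1115 on the restored-labelled array of mouse 279, inside the range of 969 to 1202 of the other 5 arrays, so the low value was seen at 1 of 2 probe sets. A second Ern1 probe set gave 0.10 ± 0.18. In mouse 279 that Ern1 probe set read 181 in knockdown-labelled and 179 in restored-labelled cells.

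At their brightest probe sets Ern1 and Edem1 were lowest on 2 arrays, knockdown-labelled mouse 281 and restored-labelled mouse 279. The same 2 arrays were the lowest for granulocyte progenitor markers. The summed intensity of 6 such genes (Elane, Mpo, Prtn3, Ctsg, Ms4a3 and Gfi1) was 43408 and 47133 on them, against 52882 to 60384 on the other 4 arrays. None of the 6 genes was at 0 on any array, and their sums overlapped between the groups, at 43408 to 59329 in knockdown-labelled and 47133 to 60384 in restored-labelled cells. This likeness was noticed after the values were seen, and the part of these markers or of the RNA quality of the array in the Ern1 and Edem1 values was not tested. The second probe sets did not give the same pair of arrays. For Ern1 the mouse 279 arrays were lowest there (181 and 179), and for Edem1 the mouse 281 arrays (969 and 1005). In a bulk sample, fewer cells of a type and less RNA per cell cannot be told apart.

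Xbp1 itself, the transcription factor gene downstream of IRE1, read 4669.6, 4889.6 and 3955 in knockdown-labelled cells, against 4583, 4769.7 and 4645 in restored-labelled cells. Only the knockdown-labelled array of mouse 281 lay outside a narrow range, and the difference was -0.056 ± 0.093, with 0.029, 0.061 and 0.095 at 3 other probe sets. Dnajb9, encoding ERdj4, a BiP co-chaperone that is a sensitive target of XBP1, read 3861, 3829 and 3590 in knockdown-labelled cells, against 3105, 3013 and 3498 in restored-labelled cells. The groups did not overlap, and the difference of 0.23 ± 0.098 (1.17-fold, 95% interval 0.97 to 1.42) did not pass (adjusted p = 0.771, limma). Dnajc3, encoding P58IPK, a co-chaperone that also restrains PERK, read 4804, 4837 and 4688 in knockdown-labelled cells, against 4592, 3961 and 4557 in restored-labelled cells. Its difference was 0.13 ± 0.089, without overlap, but 0.062 in the fit of 5 arrays, and another probe set gave -0.16 ± 0.11.

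**Figure D2:**
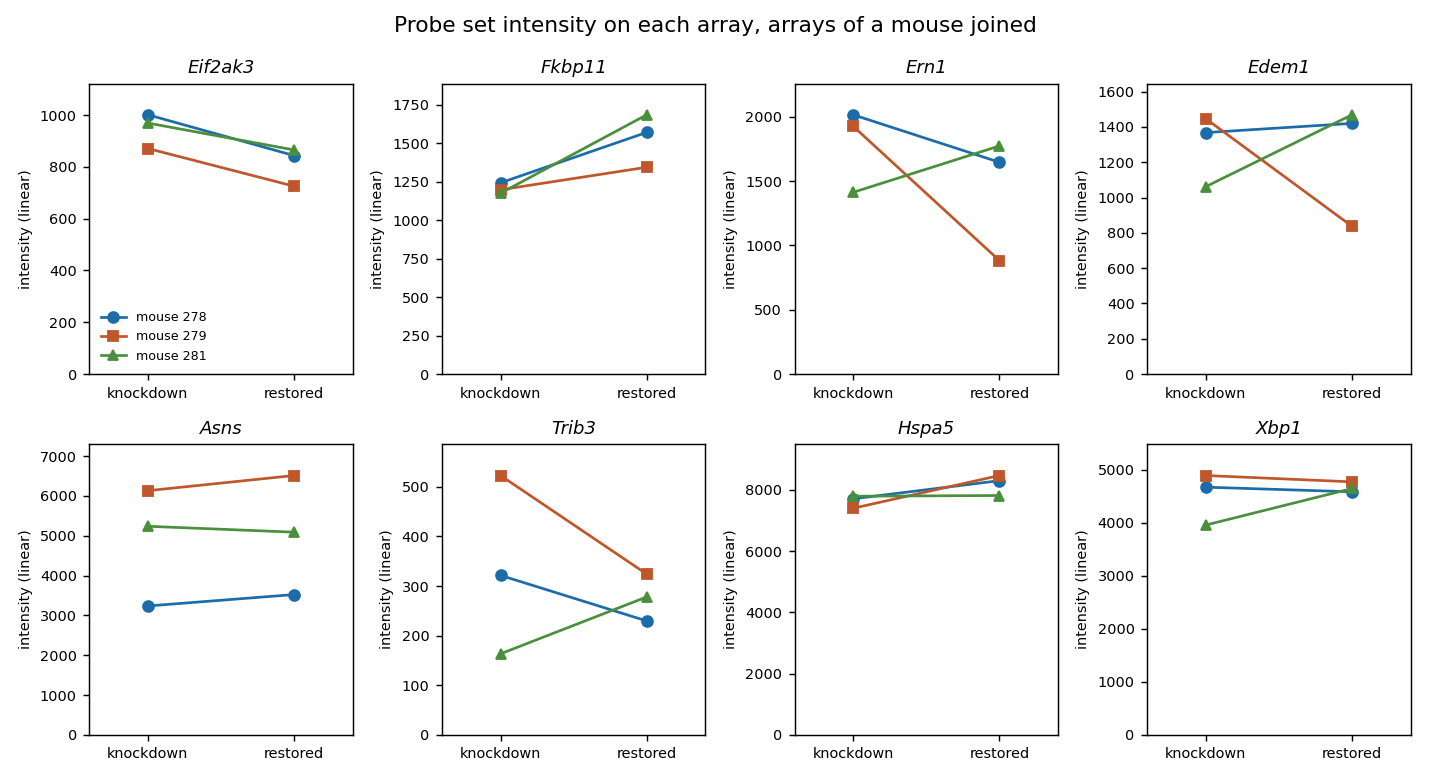
Linear probe set intensity (y axis from 0) of 8 ER genes on each array, with the knockdown-labelled and restored-labelled arrays of a mouse joined. Eif2ak3, Fkbp11 and, by a narrow margin, Hspa5 separate the groups. Ern1 and Edem1 drop in restored-labelled mouse 279, and Asns separates the mice.

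The ATF6 branch had 3 genes higher and 5 lower, with a median of -0.047. Atf6 read 1724, 1870.0 and 1820.4 in knockdown-labelled cells, against 1699, 1486 and 1839.8 in restored-labelled cells, a difference of 0.11 ± 0.10 with overlapping groups, and of 0.029 in the fit of 5 arrays. Hspa5 read 7708, 7399 and 7793 in knockdown-labelled cells, against 8300.2, 8469 and 7816 in restored-labelled cells. The groups met without overlap in mouse 281, where the 2 populations differed by -0.0043, and the difference was -0.10 ± 0.079 (95% interval 0.80- to 1.09-fold). Manf, a secreted stress-induced factor of the ER, separated the groups in the same way, with 4609, 4359 and 4409 in knockdown-labelled cells, against 4854, 4882 and 4783 in restored-labelled cells, at -0.12 ± 0.071. The interval of Manf reached 0.80-fold on the lower side, as did that of Hspa5.

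Other ATF6 targets overlapped between the groups. Hsp90b1, encoding GRP94, the HSP90 chaperone of the ER, read 5035, 5132 and 5906 in knockdown-labelled cells, against 5342, 6158 and 5070.4 in restored-labelled cells. Creld2, a stress-induced disulfide isomerase, read 2387, 2087 and 2371 in knockdown-labelled cells, against 2346, 2978 and 2451 in restored-labelled cells. Both genes were highest on the mouse 279 restored-labelled array, and the differences were -0.043 ± 0.12 for Hsp90b1 and -0.18 ± 0.14 for Creld2. In the fit of 5 arrays they were 0.038 and -0.074. Hyou1, a nucleotide exchange factor of BiP, gave 0.061, Dnajb11, a BiP co-chaperone, 0.012, and Sdf2l1, its partner, -0.051. Pdia4, below the filter, read 76 to 169 on the 6 arrays.

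The 8 genes with an ERSE had 4 higher and 4 lower differences, with a median of -0.0080 and a range from -0.23 (Pdia6) to 0.13 (Dnajc3). Their medians in mice 278, 279 and 281 were 0.045, -0.068 and 0.0088. Neither gene with the ERSE-II stood apart, with Herpud1 at -0.060 ± 0.089 and Dnajb11 at 0.012 ± 0.074.

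Among the lectin chaperones and disulfide isomerases, Calr and Canx stood together on the higher side. Calr, encoding calreticulin, read 12044, 12135 and 11822 in knockdown-labelled cells, against 11143, 11652 and 11274 in restored-labelled cells. Canx, encoding its membrane-bound partner calnexin, read 7966, 8145 and 7878 in knockdown-labelled cells, against 7576, 7587 and 7759 in restored-labelled cells. In both the groups did not overlap, yet the differences were only 0.080 ± 0.070 and 0.066 ± 0.071, and centring the arrays turned them to the other side. Both other probe sets of each gene also stood higher, at 0.061 and 0.073 for Calr and 0.13 and 0.12 for Canx. Pdia6, a disulfide isomerase that acts on IRE1 and PERK as well as on client proteins, read 3785, 3430.1 and 3580.05 in knockdown-labelled cells, against 4344, 4535 and 3845 in restored-labelled cells. The groups did not overlap, at -0.23 ± 0.093 (0.85-fold, 95% interval 0.71 to 1.02, adjusted p = 0.771, limma). Pdia3, which works with calnexin and calreticulin, stood at -0.030 ± 0.072.

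In ER-associated degradation, 4 of 6 genes stood higher, with a median of 0.053. Sel1l, the adaptor of the ubiquitin ligase HRD1, read 5768, 5664 and 5717 in knockdown-labelled cells, against 5165, 5534 and 5182 in restored-labelled cells, without overlap and at 0.11 ± 0.074. Its 3 other probe sets past the filter gave 0.21 ± 0.14, 0.41 ± 0.11 and 0.49 ± 0.24, a set singled out after its values were seen. HRD1 itself, encoded by Syvn1, stood at 0.027 ± 0.076. The channel components Derl1 and Derl2 gave 0.079 and 0.080, and 3 further Derl1 probe sets gave -0.046, -0.017 and 0.053. Edem2 gave -0.046 and Herpud1, a scaffold of the same ligase complex, -0.060.

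**Figure D3:**
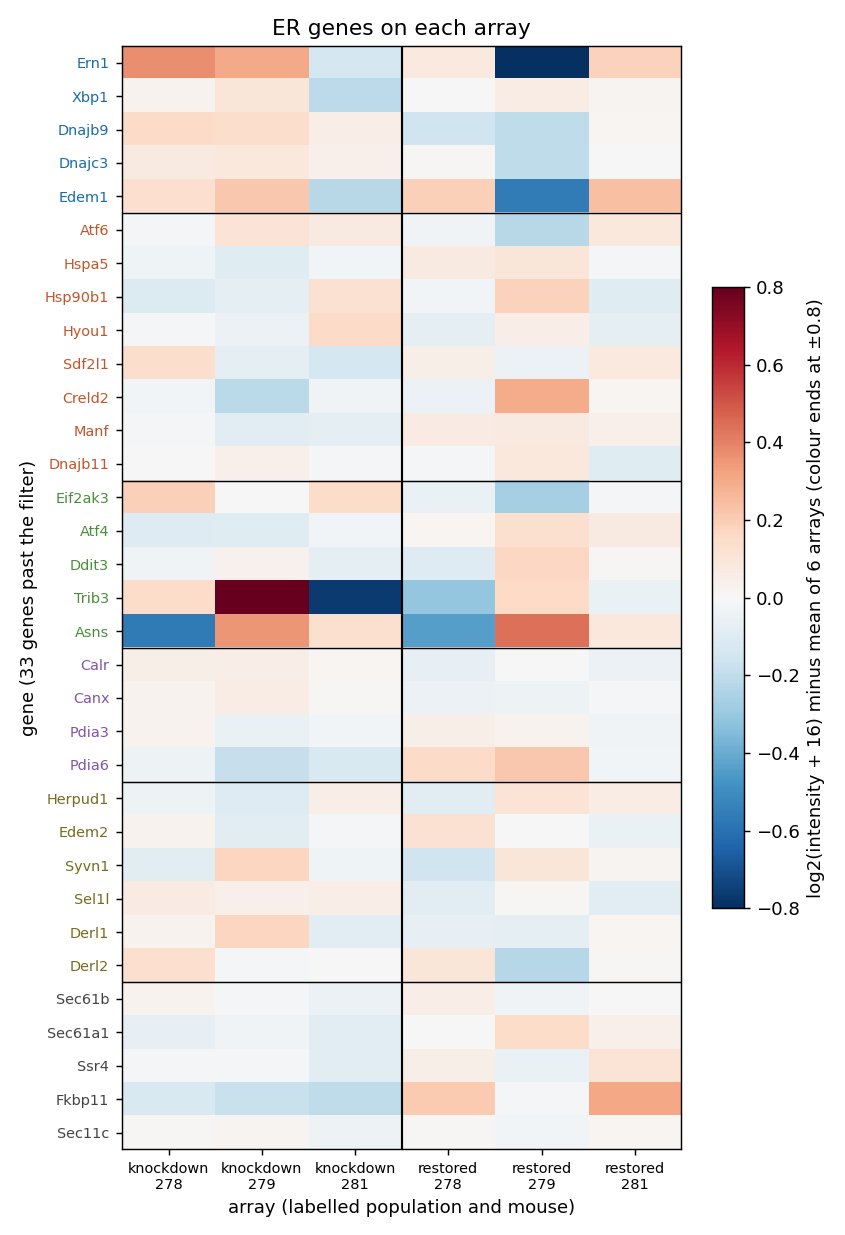
Deviation of 33 ER genes (rows, by group) from their mean over the 6 arrays, on the log2(intensity + 16) scale, with knockdown-labelled arrays left and restored-labelled arrays right. The strongest colours are those of Ern1 and Edem1 on the restored-labelled array of mouse 279, of Trib3, and of Asns, whose colours follow the mouse.

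The 5 genes of secretory entry had differences below 0 at their brightest probe sets, with a median of -0.069, which was -0.0068 without mouse 281. Fkbp11, a peptidyl-prolyl isomerase of the ER that is abundant in secretory cells, read 1242, 1197 and 1175 in knockdown-labelled cells, against 1569.8, 1343 and 1684 in restored-labelled cells. The groups did not overlap, and the 3 knockdown-labelled arrays lay within a narrow range. The difference was -0.34 ± 0.099 (0.79-fold, 95% interval 0.65 to 0.96, unadjusted p = 0.0278, limma adjusted p = 0.771). It was -0.33, -0.16 and -0.51 in mice 278, 279 and 281, and -0.43 in the fit of 5 arrays. Leaving out mouse 278 or mouse 281 gave unadjusted p-values of 0.135 and 0.121 in limma. Sec61a1, the pore of the translocon, read 6268, 6421 and 6149 in knockdown-labelled cells, against 6533, 7256 and 6747 in restored-labelled cells, without overlap and at -0.12 ± 0.073. Its 3 other probe sets gave -0.13, -0.071 and 0.23. Its small partner Sec61b stood at -0.020 ± 0.070, the translocon-associated Ssr4 at -0.069 ± 0.085 and the signal peptidase subunit Sec11c at -0.0032 ± 0.072, with 0.25 ± 0.15 at a second probe set.

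Plasma cells rely on XBP1 and a large ER, so their markers were set beside these genes. The summed intensity of the 9 markers with a probe set was 14085 to 26402 in knockdown-labelled cells, against 8464 to 9572 in restored-labelled cells, and none of these markers was at 0. In mice 278 and 279 all 9 read higher in knockdown-labelled cells, and in mouse 281 so did 7, with Prdm1 at -0.39 and Slamf7 at -0.31. Some of the 6 that passed the filter, such as Irf4 and Pou2af1, passed it through the knockdown-labelled arrays, so no count over those 6 is given. Mzb1, an ER protein of plasma cells, read 986, 905 and 523 in knockdown-labelled cells, against 242, 320.4 and 274 in restored-labelled cells, and Sdc1 (CD138) differed by 0.94 ± 0.17. Within the same pairs of samples Xbp1, Sec11c and Ssr4 differed by -0.23 to 0.047 on the log2 scale at their brightest probe sets. Other Xbp1 probe sets gave 0.029, 0.061 and 0.095 in the fit, and another of Sec11c 0.25. Dnajb9 stood higher, at 0.31, 0.34 and 0.037 in mice 278, 279 and 281, and Fkbp11 lower, at -0.33, -0.16 and -0.51. Other lists moved too. Of 8 tested megakaryocyte markers 7 stood lower, 4 of them at an unadjusted p below 0.05 (limma) against 1.88% of all genes. All 11 macrophage markers with a probe set, 7 of them past the filter, had fitted differences below 0, while 50% of all genes tested stood higher. The summed intensities of both lists overlapped between the groups. They were 9116 to 10252 in knockdown-labelled and 9927 to 13251 in restored-labelled cells for megakaryocytes. For macrophages they were 4575 to 7468 in knockdown-labelled and 6196 to 8157 in restored-labelled cells. The median over the 7 tested macrophage markers was -0.32, 0.082 and -0.57 in mice 278, 279 and 281. Mature neutrophil markers had a median difference of 2.72 in mouse 279, against -0.046 in mouse 278 and -0.58 in mouse 281. The part of these cell types in the ER gene values was not tested.

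**Figure D4:**
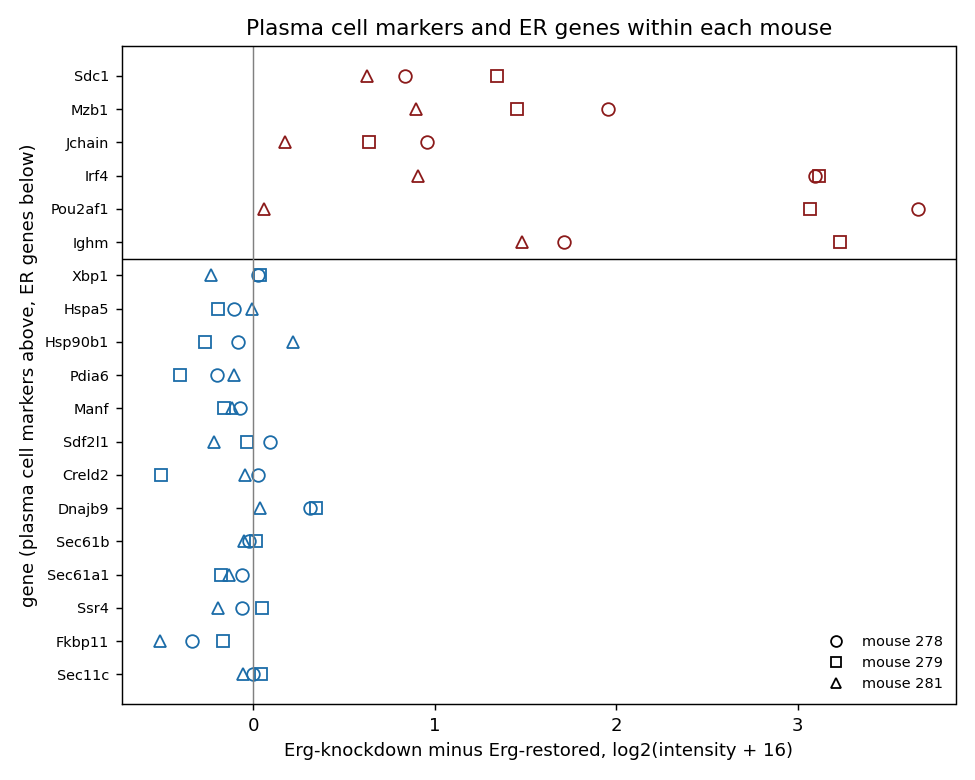
Knockdown-labelled minus restored-labelled difference within each mouse, on the log2(intensity + 16) scale, for 6 plasma cell markers (above the line) and 13 ER genes (below it). Some of the markers, such as Irf4 and Pou2af1, passed the filter through the knockdown-labelled arrays. Their values are therefore not set against those of the ER genes, which lie between -0.51 and 0.34.

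The rest of the pathway was read through lists that hold none of the 34 genes, and no gene of them passed an adjusted p of 0.05. Among 11 other regulators of ER stress 6 stood higher, 2 of them at an unadjusted p below 0.05 against 3.96% of all genes. These were Wfs1, encoding the ER membrane protein wolframin, at 0.35 ± 0.090, and Creb3l1, a membrane-bound transcription factor related to ATF6, at 0.61 ± 0.16. Creb3l1 was dim and passed the filter only through the knockdown-labelled arrays, so that count is not read further. It had 192, 224 and 145 in knockdown-labelled cells, against 105, 119 and 123 in restored-labelled cells. Of 22 other genes of the integrated stress response, 7 stood higher and 15 lower, with a median of -0.067 and 0 at an unadjusted p below 0.05. Its leading genes were Sars, a seryl-tRNA synthetase and ATF4 target, at -0.23 ± 0.11, and Ddit4, an inhibitor of mTORC1, at 0.20 ± 0.11. The median of this list was -0.19 in mouse 279, against -0.010 in mouse 278 and 0.071 in mouse 281.

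Of 26 other ER folding genes 8 stood higher and 18 lower, with a median of -0.035. Erp27, a non-catalytic disulfide isomerase family member, gave 0.30 ± 0.081, the 1 gene of that list at an unadjusted p below 0.05, and Sil1, a nucleotide exchange factor of BiP, -0.24 ± 0.12. Of 20 other degradation genes 11 stood higher, led by the lectin gene Erlec1 at -0.24 ± 0.095 and the mannosidase-like Edem3 at 0.20 ± 0.10. Of 29 other genes of translocation, signal cleavage and N-glycosylation 13 stood higher, led by Tusc3 at 0.26 ± 0.10 and Tram2 at 0.17 ± 0.077. Of 29 genes of vesicle traffic between ER and Golgi 10 stood higher, led by the coat gene Sec24a at 0.30 ± 0.14 and Copz1 at -0.16 ± 0.079. No gene of these 3 lists reached an unadjusted p of 0.05 in limma, against 5.84% of all genes.

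Cytosolic heat shock genes, which answer misfolding outside the ER, had 5 of 19 tested members higher and a median of -0.050. Hspa4l gave 0.25 ± 0.087, the 1 of the 19 at an unadjusted p below 0.05 in limma, against 5.84% of all genes. Hspa1b, the inducible HSP70, read 183, 226 and 203 in knockdown-labelled cells, against 456, 159.7 and 716 in restored-labelled cells. It was high on the restored-labelled arrays of mice 278 and 281 alone, and its difference was -0.84 ± 0.48. The summed intensity of the 22 genes with a probe set was 115990 to 123245 in knockdown-labelled cells, against 115184 to 135088 in restored-labelled cells, with the top value from mouse 279.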

How the data were processed

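The table deposited by the authors holds a linear intensity for each of 45101 probe sets on 6 arrays. For their summary and scaling, the method was not given in the sources used here. Per the labels' protocols, RNA was amplified and labelled with NuGEN Ovation V2. An array value has no count behind it, so the number of arrays limits the precision. After 64 controls were left out, 34945 probe sets had 1 gene symbol in the platform annotation, 932 several and 9160 none. Intensities were taken to log2(value + 16), which understates fold changes of dim genes. Probe sets whose mean log2 value reached the median (intensity 143.5; 22519 probe sets) were kept, and limma 3.58.1 (R 4.3.3) was run on the brightest per gene, with the mouse as a block, since both populations came from the same animal. Benjamini-Hochberg adjustment ran over all 10824 genes at 0.05. Values of other probe sets, and of Pdia4, come from fits without the filter. The fit was tested on simulated data.

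Deviations of same-mouse arrays from their group means correlated at 0.44, -0.17 and -0.29 in mice 278, 279 and 281. Across mice, knockdown-labelled 281 with restored-labelled 279 gave 0.41, and knockdown-labelled 279 with restored-labelled 281 gave 0.34. The remaining pairs across mice gave -0.27 to -0.06. The arrays of mice 279 and 281 were thus more alike across the 2 mice than within them, and the pairing rests on the labels. The genes named are the 34, Erg, the 2 genes of smallest p in each pathway list, and genes of the marker lists and with an ERSE. Genes and lists were chosen with earlier results of these data known. Of 10 marker lists, the report gives LSK, plasma cell, granulocyte progenitor, neutrophil, megakaryocyte and macrophage, and the closing section the others. Alternatives changed the block, scaling, filter, added value, probe set rule, variance model and the mice or arrays kept. Promoters come from RefSeq (GRCm38.p6). Figures used matplotlib 3.10.9.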

Additional observations from a re-analysis of the deposited data

How the results depend on the processing

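No ER gene passed an adjusted p of 0.05 under any of the 14 alternatives. Of 461 recomputed single-gene differences, 439 moved by less than their spread between mice. Dropping the block, changing the filter and the trend and robust settings cannot move a difference here. Their differences are among the 439, so that count says little about stability. The number of ER genes at an unadjusted p below 0.05 in limma, which was 2 of 33, depended on the setting. With no filter on low values it was 1 of 34, against 5.95% of all genes. With trend and robust settings it was 6 of 33, against 5.94%. Without mouse 278 it was 0, against 2.38%. Without mouse 279 it was 1, against 6.03%, and only Fkbp11 stayed. Without mouse 281 it was 2, Ern1 and Trib3, against 6.68%. With no replicate block the number was 3 (Dnajb9, Fkbp11 and Pdia6), against 5.86% of all genes, and Eif2ak3 was no longer among them. No gene passed an adjusted p of 0.05 with or without the block, so there was no call that it could change. With arrays centred on the median, the median difference was -0.13 over all ER genes instead of -0.020, -0.15 in the ATF6 branch, -0.16 in the PERK branch, -0.089 for lectin and disulfide folding, -0.054 for degradation, -0.18 for secretory entry and 0.024 in the IRE1 branch. The cause was not tested, but all genes moved with them, to -0.11. Without 1 mouse the median of the IRE1 branch ran from -0.018 to 0.33, that of degradation from 0.0086 to 0.083, of secretory entry from -0.097 to -0.0068, of the ATF6 branch from -0.070 to -0.0042, and of all ER genes from -0.021 to -0.0042. The median of the PERK branch ran from -0.040 to -0.024 without 1 mouse. The fit of 5 arrays, which dropped restored-labelled mouse 279 and has no mouse term, put that median at 0.14. The count of 12 genes without overlap, examined after the data were seen, was 15 to 17 without 1 mouse, where 31.3% to 44.4% of all genes did not overlap, and 14 in the 5 arrays, against 23.8%. With centred arrays it was 11, against 16.6%, and all 11 stood lower. They were Sec61a1, Sec61b, Fkbp11, Pdia3, Pdia6, Edem2, Hspa5, Manf, Atf4, Herpud1 and Creld2. None of the 6 genes that separated on the higher side before centring was among them. Dim probe sets such as those of Pdia4, Creb3l1 and Trib3 limit what can be read of their genes.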

Other observations

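Genes outside the 34 that hold an ERSE in their promoter window numbered 29, of which 6 were tested. Of these, 1 stood higher and 5 lower, with a median difference of -0.11. All 6 follow. Ero1b, an oxidase that recharges ER disulfide isomerases, gave -0.11 ± 0.13, and Alg12, a mannosyltransferase of N-glycan assembly, -0.086 ± 0.13. Acacb gave -0.38 ± 0.22, Zfp57 -0.41 ± 0.38, Pan2 -0.100 ± 0.16 and Adcy3 0.087 ± 0.12. None of the 6 reached an unadjusted p of 0.05 in limma, against 5.84% of all genes.

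For the marker lists not given above, the summed intensity overlapped between the groups. It was 4015 to 6296 in knockdown-labelled and 4390.1 to 5372 in restored-labelled cells for B cells, and 1861 to 2023 in knockdown-labelled and 1613 to 2085 in restored-labelled cells for T cells. For erythroid markers it was 21189 to 33799 in knockdown-labelled and 20955 to 29312.5 in restored-labelled cells, and for mast cells and basophils 11322 to 11720.3 in knockdown-labelled and 11638.5 to 12828.5 in restored-labelled cells. No tested gene of these lists passed an adjusted p of 0.05 in limma.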
